A study of Mus musculus with 30 samples.

Results

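The 5-hydroxymethylcytosine (5hmC) regions described here were called in embryoid bodies (EB) and in embryonic stem (ES) cells that lack Tdg, but not in ES cells with floxed Tdg (fl/fl), the allele from which Tdg can be deleted. They were chosen by position: each is a region of the EB 5hmC list on chromosomes 1 to 19 or X that shares at least 1 bp with a 5hmC region of Tdg -/- ES cells and none with a 5hmC region of Tdg fl/fl ES cells. Of 101593 EB 5hmC regions, 17420 (17.1%) met this rule and are called the shared regions below. Their 5hmC in the 3 lists chose them and is given only as a description. All are mouse regions in the mm9 build, with starts and ends as deposited.

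The groups were Tdg fl/fl EB, Tdg -/- ES cells and Tdg fl/fl ES cells, all of strain C57BL/6-ICR, and all grown as feeder-free ES cells in serum with LIF and the inhibitors CHIR99021 (of GSK3) and PD0325901 (of MEK). EB are ES cell aggregates that start to form early embryonic lineages, and were kept in suspension for 5 days without LIF and the inhibitors. EB and the fl/fl ES cells have the same floxed genotype, so the shared regions join a change of cell state with a change of genotype. How Tdg was deleted and whether each line is 1 clone are not given in the sources used here, and Tdg -/- EB were not analysed here. Each list pools the libraries of its group, 2 for 5hmC and 5-formylcytosine (5fC) and 3 for p300, so the lists carry no replicate spread and none of the differences below has a replicate test.

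TET enzymes oxidise 5-methylcytosine to 5hmC and then to 5fC and 5-carboxylcytosine, and thymine DNA glycosylase, the product of Tdg, excises the last of these and 5fC so that base excision repair can restore cytosine. 5hmC is known to accumulate at enhancers and gene bodies of ES cells, and 5fC to build up at distal regulatory elements when Tdg is missing. p300 is a histone acetyltransferase and coactivator found at enhancers.

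The remaining EB 5hmC regions fell into 61834 called in all 3 lists (60.9%), 19336 called in EB alone (19.03%) and 3003 called in EB and fl/fl ES cells but not in Tdg -/- ES cells (2.96%). Of the 36756 EB regions without fl/fl ES 5hmC, 47.4% (Wilson 95% interval 46.9 to 47.9, counting error only) were thus also called in Tdg -/- ES cells. Seen from the other side, 17764 of the 56405 5hmC regions of Tdg -/- ES cells without fl/fl counterpart (31.5%, 31.1 to 31.9) overlapped an EB region. The deposited lists give no read numbers, so the depth behind each is unknown. The fl/fl ES 5hmC list held 140943 regions and the Tdg -/- list 174655, and a deeper list calls more regions.

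The overlap with Tdg -/- 5hmC was mostly broad. Tdg -/- 5hmC covered a median of 88.7% of a shared region (interquartile range 76.3 to 97.5), 3073 regions (17.6%) lay wholly inside it, and for 183 (1.05%) it covered less than 10%. In 16601 cases the Tdg -/- region was itself free of fl/fl 5hmC, while 819 shared regions overlapped only Tdg -/- regions that reached a fl/fl region elsewhere. Few regions lay at the edge of the rule. There were 32 shared regions with 1 to 10 bp of Tdg -/- 5hmC (median width 927.5 bp, 11 with Tdg -/- 5fC), against 52 regions of EB alone that ended within 10 bp of it (828.5 bp, 17 with Tdg -/- 5fC). At the other edge, 65 shared regions stopped within 10 bp of fl/fl 5hmC (1086 bp, 34 with Tdg -/- 5fC), against 32 EB regions with Tdg -/- 5hmC that shared 1 to 10 bp with it (1001 bp, 11 with Tdg -/- 5fC).

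The shared regions were of middle size. Their median width was 963 bp (interquartile range 795 to 1187, from 325 to 8515 bp), against 858 bp (711 to 1038) for regions of EB alone and 1192 bp (940 to 1664) for those in all 3 lists. Together they covered 18.5 Mb. The authors' score, a p-value on a scale of -10 log10, followed the same order within the EB list, with medians of 89.9 for shared regions, 76.6 for EB alone and 126 for all 3 lists. In the Tdg -/- list, regions gained over fl/fl cells had a median score of 94.7 where EB also had 5hmC and 74.9 where it had none. A wider region has more room to overlap another list, so the widths bear on every share that follows.

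Most shared regions lay near, but not beside, 5hmC of fl/fl ES cells. The nearest fl/fl 5hmC region was a median of 2608 bp away (interquartile range 848 to 7421), with 27.97% within 1 kb and 80.6% within 10 kb. Regions of EB alone stood farther off, with a median of 3497 bp and 22.7% within 1 kb. The Tdg -/- regions gained without EB 5hmC had a median of 2445 bp.

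5fC of Tdg -/- ES cells was the most frequent of the other marks at the shared regions. It lay at 7752 of 17420 (44.5%, 43.8 to 45.2), against 61.9% of all EB 5hmC regions. 5fC of EB itself lay at 2092 (12.01%, 11.5 to 12.5), against 17.8% of all EB 5hmC regions. 5fC of fl/fl ES cells lay at 1177 (6.76%, 6.39 to 7.14), against 28.2% of all. For each of the 3 lists the shared regions thus stood below the EB background, and farthest below it for fl/fl ES cells. The lowest score in that list was 60.92, against 50 in the other 5fC lists, and the shared regions lack fl/fl 5hmC by the rule.

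**Figure D1:**
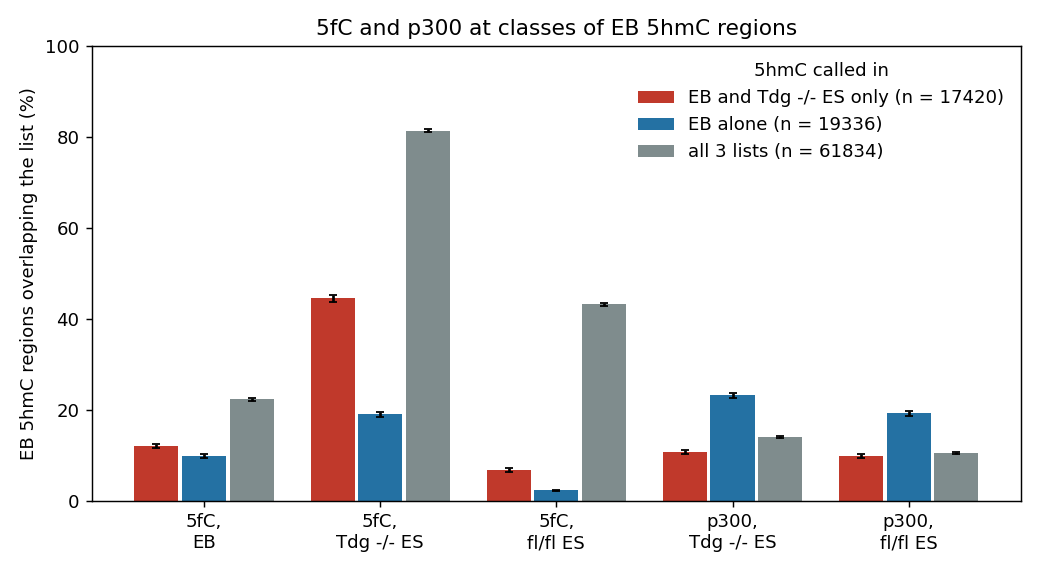
Percent of EB 5hmC regions that overlap each 5fC or p300 list by at least 1 bp, for regions called in EB and Tdg -/- ES cells only, in EB alone and in all 3 5hmC lists; bars are pooled shares and error bars Wilson 95% intervals. 5fC of Tdg -/- ES cells lay at 44.5%, 18.9% and 81.4% of these classes, and p300 of Tdg -/- ES cells at 10.7%, 23.1% and 13.999%.

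Taken by their combination of 5fC lists, 9030 shared regions (51.8%, 51.1 to 52.6) held no called 5fC at all, against 34.8% of all EB 5hmC regions. The next most frequent state was 5fC in Tdg -/- ES cells alone, at 5379 regions (30.9%). It lay at 31.5% of regions in all 3 5hmC lists and 13.2% of those of EB alone. 5fC in EB and Tdg -/- ES cells but not in fl/fl ES cells, the same pattern as the 5hmC of the shared regions, was found at 1406 (8.07%, 7.68 to 8.48). That pattern lay at 8.35% of regions in all 3 5hmC lists and 4.42% of those of EB alone. All 3 lists had 5fC at 248 shared regions (1.42%) and EB alone at 428 (2.46%). For regions in all 3 5hmC lists these shares were 13.2% and 0.639%, and for regions of EB alone 0.341% and 4.96%. 5fC present in Tdg -/- and absent from fl/fl ES cells lay at 6785 shared regions in all (38.9%, 38.2 to 39.7), against 35.2% of all EB 5hmC regions, 39.8% of those in all 3 lists and 17.6% (17.1 to 18.2) of regions of EB alone. On chromosome 11 this share was 52.6% of shared regions, beside 54.2% of those in all 3 lists and 23.2% of those of EB alone. Without chromosome 11 it was 36.1%, beside 38.9% and 17.3%. The EB background of 35.2% includes chromosome 11.

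EB 5fC was more frequent at shared regions that also had Tdg -/- 5fC, although most regions with Tdg -/- 5fC had none of EB. Where a shared region had EB 5fC, Tdg -/- 5fC lay at 1654 of 2092 (79.1%, 77.3 to 80.8). EB 5fC lay at 21.3% (20.4 to 22.3) of shared regions with Tdg -/- 5fC and at 4.53% (4.13 to 4.96) of those without it. Regions of EB alone and in all 3 lists had a like contrast, with 25.1% and 6.21% for EB alone and 26.5% and 3.81% for all 3 lists. The contrast was thus found in each of the 3 classes.

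A closer comparison holds fixed part of the 5hmC that the rule used. For EB 5fC the shared regions were set against regions of EB alone, since both carry EB 5hmC and lack that of fl/fl ES cells. By the rule these classes still differ in Tdg -/- 5hmC. The shared regions also had higher EB scores, as given above, and what part of the difference goes with the scores was not tested. EB 5fC lay at 12.01% of shared regions and 9.80% (9.38 to 10.2) of regions of EB alone. Averaged over the 20 chromosomes, the difference was 2.00 ± 0.39 percentage points (SE over chromosomes, which are not replicates), with this sign on 18 of 20. The direction did not hold under 2 other settings. With regions of EB alone weighted to the widths of the shared regions, their share was 13.2% and the difference turned to -1.18 points, and with an overlap of at least 50% of the region asked for it was -0.0081 points.

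For Tdg -/- 5fC, the 5hmC regions that Tdg -/- cells gained over fl/fl cells were split by EB 5hmC. Those with EB 5hmC carried Tdg -/- 5fC at 7891 of 17764 (44.4%, 43.7 to 45.2), and those without it at 6807 of 38641 (17.6%, 17.2 to 18.0), while 54.9% of all Tdg -/- 5hmC regions did. The difference was 25.99 ± 0.63 percentage points over chromosomes, lay between 20.8 and 31.9 on each and had this sign on 20 of 20. With widths matched, the pooled difference was 25.8 points. The gained regions with EB 5hmC also had higher scores, as given above, and what part of the difference goes with the scores was not tested. Across the remaining marks, fl/fl 5fC lay at 6.69% of gained regions with EB 5hmC and 3.88% of those without. EB 5fC lay at 12.1% and 1.59%, a contrast that follows in part from the split by EB 5hmC. Among all Tdg -/- 5hmC regions, fl/fl 5fC lay at 26.6% and EB 5fC at 11.3%. The gained regions with EB 5hmC thus stood near this share for EB 5fC and below it for fl/fl 5fC. Set against regions of EB alone instead, the shared regions had Tdg -/- 5fC at 44.5% and those of EB alone at 18.9%, a gap that is likewise built in part into the rule, since the shared regions carry Tdg -/- 5hmC.

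**Figure D2:**
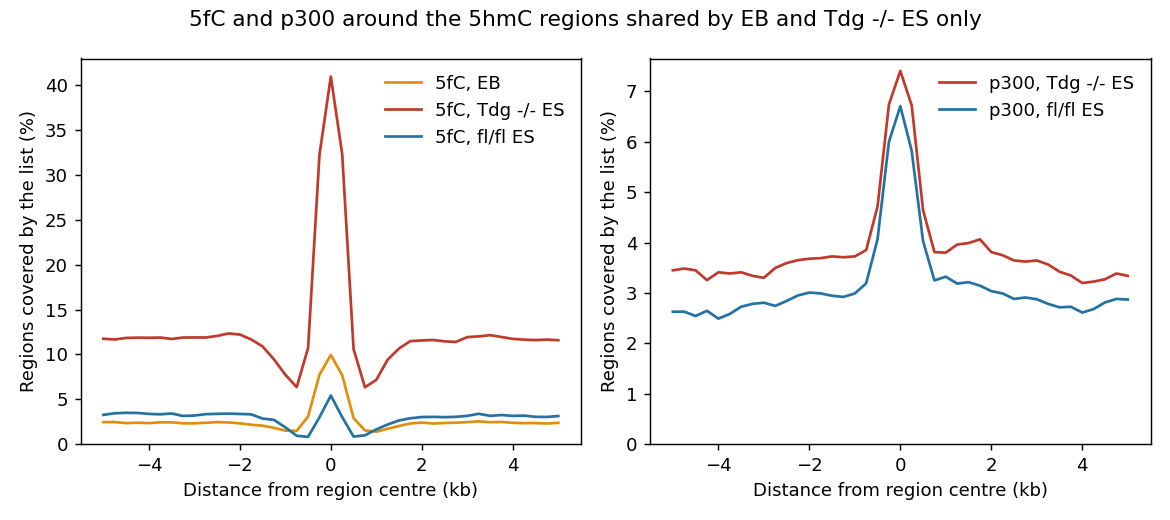
Percent of the 17420 shared regions covered by each list, by distance from the region centre in kb, for 5fC (left) and p300 (right), whose vertical axes differ in scale. Tdg -/- 5fC covered 41.0% of the centres and 11.8% of points 5 kb before them, EB 5fC 9.95% of the centres and p300 of Tdg -/- ES cells 7.41%.

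5fC covered the centres of the shared regions more often than their flanks. Points at 1 and 5 kb lay outside most shared regions, so position within a region was not resolved. Tdg -/- 5fC showed this also at regions of EB alone (17.4% of centres, 8.81% at 5 kb before) and in all 3 lists (75.7% and 14.4%). fl/fl 5fC did not at regions of EB alone (1.80% and 2.62%). The values that follow are of the shared regions. Tdg -/- 5fC covered 41.0% of the centres, 7.74% of points 1 kb before them and 11.8% of points 5 kb before. EB 5fC covered 9.95% of centres against 2.46% at 5 kb before, and fl/fl 5fC 5.43% against 3.27%. At 1 kb each 5fC list lay below its level at 5 kb. So did fl/fl ES 5hmC, which the rule keeps off the shared regions, with 8.31% at 1 kb and 15.6% at 5 kb before the centre. p300 showed no such dip: in Tdg -/- ES cells it covered 7.41% of the centres, 3.73% of points at 1 kb and 3.45% at 5 kb before.

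The 5fC regions concerned were narrower and of lower score than the rest of their lists. The 8030 Tdg -/- 5fC regions that touched a shared region (6.69% of that list) had a median width of 691 bp and a median score of 92.9, against 778 bp and 124 for the others. For EB the 2136 such 5fC regions (8.64% of the list) had medians of 669 bp and 70.3, against 726 bp and 72.7. For fl/fl ES cells there were 1222 (2.14%), with 467.5 bp and 77.8, against 545 bp and 93.9.

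Shared regions with a high EB 5hmC score carried 5fC and p300 more often. In the 4355 regions of lowest score (50 to 65.67) EB 5fC lay at 3.24% and Tdg -/- 5fC at 29.8%, and in the 4355 of highest score (139.67 to 1505.6) at 32.2% and 66.9%. fl/fl 5fC moved less, with 5.01% in the lowest and 9.09% in the highest of these 4 classes. p300 of Tdg -/- ES cells lay at 6.87% and 17.8%, and p300 of fl/fl ES cells at 5.86% and 16.9%. By width the spread was similar: Tdg -/- 5fC lay at 31.1% of the narrowest 4355 regions and 64.2% of the widest 4355. Score and width rise together here, and the 2 were not separated. Other EB 5hmC regions were not split in this way, so these values have no background and the rise may not be particular to the shared regions.

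**Figure D3:**
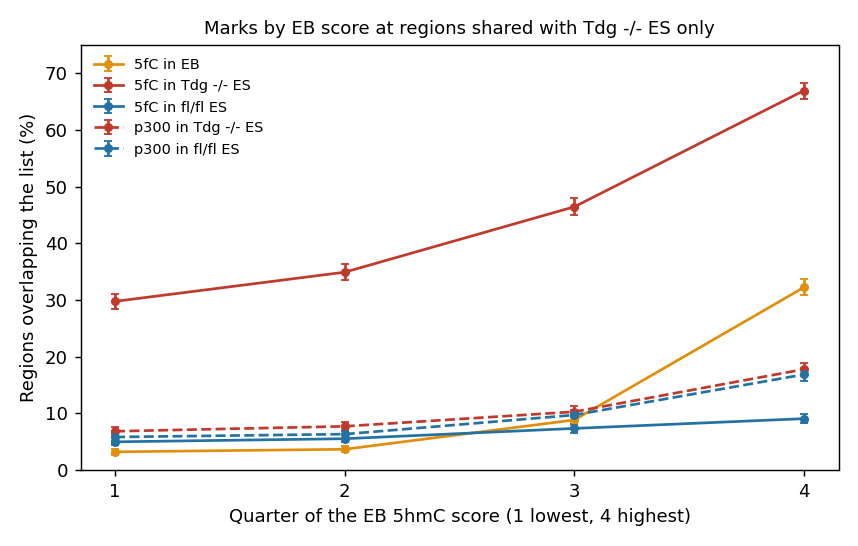
Percent of shared regions that overlap each list, in 4 classes of EB 5hmC score with 4355 regions each; points are pooled shares and bars Wilson 95% intervals. EB 5fC lay at 3.24% in the lowest and 32.2% in the highest class, and fl/fl 5fC at 5.01% and 9.09%.

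p300 was less frequent at the shared regions than at the EB background. p300 of Tdg -/- ES cells lay at 1860 (10.7%, 10.2 to 11.1), against 15.4% of all EB 5hmC regions, and p300 of fl/fl ES cells at 1691 (9.71%, 9.28 to 10.2), against 12.2% of all. Both genotypes had p300 at 1206 shared regions (6.92%), against 8.97% of all EB 5hmC regions. A further 654 (3.75%) had p300 in Tdg -/- cells alone and 485 (2.78%) in fl/fl cells alone. These states lay at 6.75% and 3.26% of regions in all 3 lists, and at 7.43% and 3.49% of regions of EB alone. Either genotype had p300 at 2345 shared regions (13.5%), against 18.6% of all EB 5hmC regions. p300 was mapped in ES cells only, so none of these values speaks of p300 in EB.

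Regions of EB alone carried ES p300 more often than the shared regions did. p300 of Tdg -/- ES cells lay at 10.7% of shared regions and 23.1% (22.5 to 23.7) of regions of EB alone. The difference was -12.4 ± 0.405 percentage points over chromosomes, with this sign on 20 of 20. For fl/fl p300 the shares were 9.71% and 19.2% (18.6 to 19.7), a difference of -9.84 ± 0.42 points on 20 of 20. The shared regions were the wider class, and with widths matched the gaps grew to -17.5 and -13.996 points. Neither 5hmC class was chosen on p300. Against the regions in all 3 lists the order depended on width: the pooled shares of Tdg -/- p300 were 10.7% and 13.999%, and with widths matched the second was 9.73%. For fl/fl p300 the pooled shares were 9.71% and 10.5%, and with widths matched the second was 6.95%. Among Tdg -/- gained 5hmC regions, p300 of Tdg -/- cells lay at 9.95% of those with EB 5hmC and 4.23% of those without. On 20 of 20 chromosomes the first was higher. Of all Tdg -/- 5hmC regions 10.7% had it, so those with EB 5hmC stood near that share and those without stood below it.

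Where a shared region had p300, it more often had 5fC too. With p300 in both genotypes, Tdg -/- 5fC lay at 832 of 1206 (69.0%, 66.3 to 71.5) and EB 5fC at 369 (30.6%, 28.1 to 33.3). With p300 in neither, the shares were 6136 of 15075 (40.7%, 39.9 to 41.5) and 9.32% (8.87 to 9.79). Shared regions with p300 in Tdg -/- cells alone had Tdg -/- 5fC at 67.1% and those with p300 in fl/fl cells alone at 71.1%, values whose intervals overlap (63.4 to 70.6 and 66.9 to 74.99). fl/fl 5fC stayed low in each, between 6.35% and 11.6%. In regions of EB alone the same p300 classes had Tdg -/- 5fC at 26.3% (both genotypes) and 15.8% (neither). Regions in all 3 lists had it at 90.0% and 79.3%, and EB 5fC at 40.6% and 18.8%. The order was thus the same in the other classes. Among shared regions, Tdg -/- p300 lay at 4.39% of the narrowest 4355 and 22.6% of the widest 4355, and 5fC rose with width too. What part of the contrast goes with width was not tested.

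The shared regions were spread unevenly over the chromosomes. Chromosome 11 held 3017 of them, or 17.3% of all, while it held 7.69% of the EB 5hmC regions. Per Mb between the first and last region of any list, chromosome 11 had 25.4 shared regions, 3.98 times the median of the other 18 autosomes (6.38, range 4.74 to 7.98). Chromosome X had 0.855. Over the whole set the density was 6.78 per Mb, and without chromosome 11 it was 5.88. As a share of the EB 5hmC regions on each chromosome, shared regions made up 38.6% (37.5 to 39.7) on chromosome 11, 21.2% (20.1 to 22.3) on chromosome 6 and between 13.4 and 16.1% on the remaining autosomes.

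In bins of 10 Mb, all 13 bins of chromosome 11 stood apart, with shared regions making up 33.9 to 44.4% of their EB 5hmC regions. On chromosome 6 it was the first 30 Mb, whose 3 bins had 41.7, 41.3 and 47.4%, or 354 of 804 EB regions together (44.0%). The other 237 bins with at least 50 EB regions lay between 6.98 and 27.4%, with a median of 15.4%. The highest of them was at 180 to 190 Mb on chromosome 2, with 32 of 117. On chromosome 6 the bins at 30 to 40 and 40 to 50 Mb, counted among these 237, had 24.3 and 21.9%, above that median. The first 30 Mb of chromosome 6 was picked out after its values were seen.

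**Figure D4:**
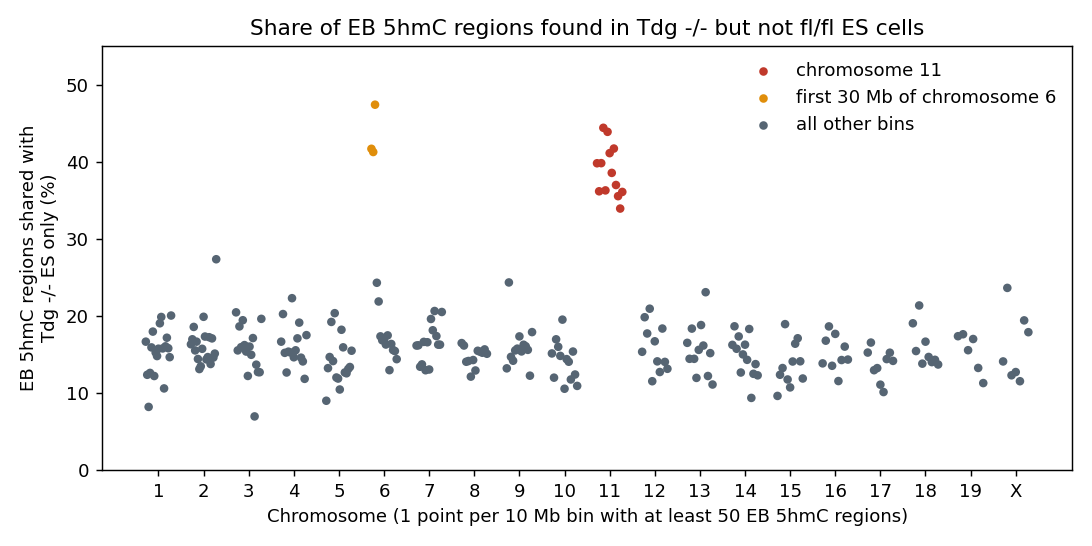
Percent of EB 5hmC regions that were also called in Tdg -/- but not fl/fl ES cells, for each bin of 10 Mb with at least 50 EB 5hmC regions, by chromosome. The 13 bins of chromosome 11 (33.9 to 44.4%) and the first 3 of chromosome 6 (41.3 to 47.4%) lie above the other 237 bins, the highest of which is at 27.4%.

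The EB and Tdg -/- lists were dense on chromosome 11, and the fl/fl ES list, which decides absence, was not. EB had 65.8 5hmC regions per Mb there, above the 31.7 to 53.97 of the other autosomes, and Tdg -/- ES cells had 122, above 51.9 to 92.7. fl/fl ES cells had 55.5, within their range of 43.9 to 79.6 on the other autosomes. On chromosome 11 EB had 1.18 times as many 5hmC regions as fl/fl ES cells, while the other 18 autosomes had ratios of 0.639 to 0.777. Tdg -/- ES cells had 2.21 times as many as fl/fl ES cells, against 1.15 to 1.33. These 2 ratios share the fl/fl list. Set directly against each other, Tdg -/- ES cells had 1.86 times as many regions as EB on chromosome 11, close to the 1.63 to 1.82 of the other autosomes. In the first 30 Mb of chromosome 6 the lists held 804 regions in EB, 1306 in Tdg -/- ES cells and 434 in fl/fl ES cells, ratios over fl/fl of 1.85 and 3.01. Unlike on chromosome 11, the EB and Tdg -/- lists were not dense there. Its bins of 10 Mb held 160 to 344 EB and 225 to 582 Tdg -/- regions, against 95 to 597 and 104 to 1060 in the other bins of that chromosome. fl/fl ES cells had 58 to 195, against 87 to 898.

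5fC followed the same pattern, and p300 did not. EB had 0.932 times as many 5fC regions as fl/fl ES cells on chromosome 11, while the other autosomes had 0.346 to 0.498, and 2.39 times as many in the first 30 Mb of chromosome 6. p300 regions on chromosome 11 numbered 2147 in Tdg -/- and 2728 in fl/fl ES cells, a ratio of 0.787, where the other autosomes ranged from 1.34 to 1.48. In the first 30 Mb of chromosome 6 the p300 ratio was 1.402, close to the 1.399 of the other bins. What sets these 2 places apart was not tested, and the results below are also given without chromosome 11. On chromosome X all lists were sparse, with 837 5hmC regions in EB, 690 in Tdg -/- ES cells and 431 in fl/fl ES cells, and 138 shared regions.

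**Figure D5:**
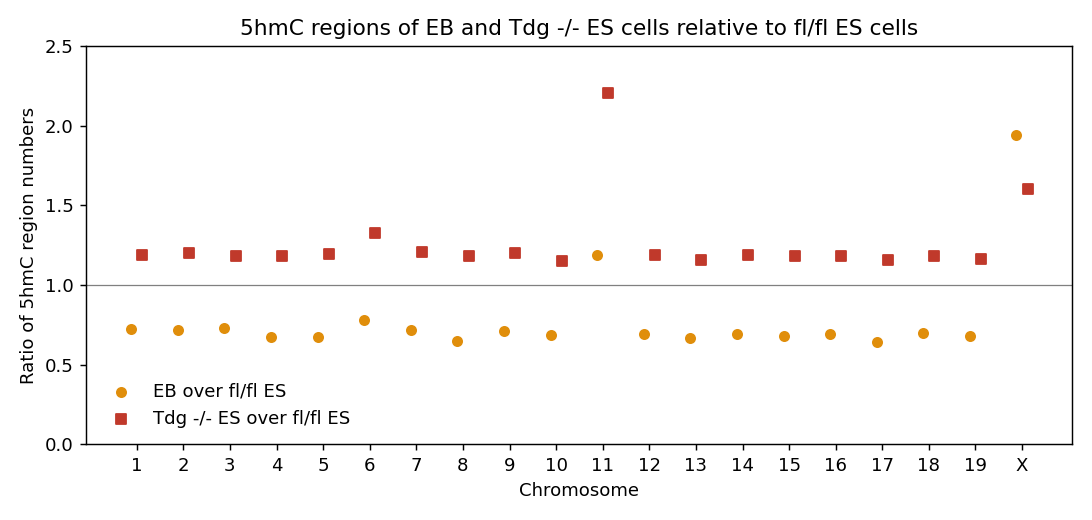
Ratio of the number of 5hmC regions in EB (circles) and in Tdg -/- ES cells (squares) to that in fl/fl ES cells, by chromosome; the line marks equal numbers and both ratios share the fl/fl list. On chromosome 11 they were 1.18 and 2.21, against 0.639 to 0.777 and 1.15 to 1.33 for the remaining autosomes; X, with few regions in any list, had 1.94 and 1.60.

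The marks at the shared regions differed between chromosome 11 and the rest, as they did in the other classes. Tdg -/- 5fC lay at 55.8% (54.0 to 57.6) of the 3017 on chromosome 11 and at 42.1% (41.3 to 42.9) of the other 14403. EB 5fC lay at 14.5% and 11.5%, and fl/fl 5fC at 3.75% and 7.39%. Regions of EB alone had Tdg -/- 5fC at 23.7% on chromosome 11 and 18.6% elsewhere, and fl/fl 5fC at 0.520% and 2.33%. Regions in all 3 lists had Tdg -/- 5fC at 91.3% and 80.7%, and fl/fl 5fC at 37.3% and 43.5%. The directions were thus the same in these 3 classes. The shared regions had a median width of 1029 bp on chromosome 11 and 949 bp elsewhere. Their nearest fl/fl 5hmC region was a median of 3508 and 2461 bp away. At the shared regions p300 of Tdg -/- cells lay at 9.55% and 10.9%, and p300 of fl/fl cells at 12.6% and 9.11%. On chromosome 11 fl/fl p300 was thus the more frequent. It was so there in the other classes too, with Tdg -/- p300 at 20.1% and fl/fl p300 at 23.4% of regions of EB alone, and 8.82% and 13.7% of those in all 3 lists. Among shared regions the same order was found on chromosome 14 (10.5% and 11.2%) and chromosome 18 (8.87% and 9.68%). The first 30 Mb of chromosome 6 had Tdg -/- 5fC at 54.0% of its 354 shared regions (48.7 to 59.1) and fl/fl 5fC at 2.54%, against 45.0% and 6.02% of the 814 on the rest of that chromosome.

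Without chromosome 11 the comparisons with the nearest classes kept their direction. EB 5fC then lay at 11.5% of shared regions and 9.72% of regions of EB alone. p300 of Tdg -/- cells lay at 10.9% and 23.3%, and fl/fl p300 at 9.11% and 18.9%. Tdg -/- 5fC lay at 42.2% of Tdg -/- gained 5hmC regions with EB 5hmC and 16.4% of those without.

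Most shared regions stood alone, but not on chromosome 11. With gaps of up to 10 kb allowed, they formed 14050 groups, and 11590 regions (66.5%) stood alone, or 40.3% on chromosome 11 and 72.0% elsewhere. Chromosome 11 also had more shared regions per Mb, as given above. Groups of the other classes are not given here, so these values have no background. Of 58 groups with 5 or more shared regions, 39 lay on chromosome 11 and 6 on chromosome 6. The 3 largest had 8 each. The first, at chr11:23983389-24013584, held 13 5hmC regions of EB, 11 of Tdg -/- and 3 of fl/fl ES cells, with 10 Tdg -/- 5fC regions, 2 of fl/fl ES cells, none of EB and no p300 in either genotype. The second, at chr6:28778403-28829796, held 11, 13 and 1 5hmC regions in the same order of groups and 3, 10 and 1 5fC regions. The third, at chr11:98886927-98934054, held 10, 18 and 4 5hmC regions and 4, 15 and 1 5fC regions, with p300 at 2 places in Tdg -/- and 3 in fl/fl ES cells. The groups were picked for their number of shared regions, so the few fl/fl 5hmC regions in them follow from the rule.

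The shared regions with the highest EB scores each carried 5fC. The first, with a score of 1505.6, lay at chrX:166430031-166433395 and was 3364 bp wide. It overlapped 2 EB 5fC regions (highest score 822) and 1 Tdg -/- 5fC region of 4325 bp (1797), and also a fl/fl 5fC region of 810 bp (101). It lacked p300, and the nearest fl/fl 5hmC was 64225 bp away. No list of places known for artefactual signal was applied to these regions.

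The other named regions follow by score. The second (1448.85) lay at chr1:120732547-120735002, where the Tdg -/- 5hmC region scored 3100 and its 5fC region 2456, while EB 5fC scored 106. It had p300 in Tdg -/- cells (167) and none in fl/fl cells. The third (1289.61), at chr11:69010003-69011615, had 5fC scores of 193 in EB and 437 in Tdg -/- cells and no p300. The fourth (1111.93), at chr12:30787641-30788859, had 5fC scores of 106 in EB and 161 in Tdg -/- cells, with p300 in Tdg -/- cells alone (176). These 3 were also the highest-scoring regions with 5fC in EB and Tdg -/- cells and none in fl/fl ES cells. The fifth (1103.92), at chr7:20076567-20077690, had 5fC scores of 142 in EB and 116 in Tdg -/- cells, lacked p300 and stood 874 bp from fl/fl 5hmC.

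Of the regions with p300 in both genotypes, the 3 with the highest EB scores each held EB and Tdg -/- 5fC. The first, at chr11:69646588-69647910 (1053.17), also ranked next after the region of chromosome 7 and had p300 scores of 90.0 in Tdg -/- and 219 in fl/fl cells. The second, at chr5:148563990-148565930 (1048.99), had 153 and 345. The third, at chr4:134009152-134010519 (989.72), had 128 and 201, and was the one of them with fl/fl 5fC (68.8). Scores grow with depth, so those of different lists are given side by side and not compared.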

How the data were processed

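The authors deposited 8 region lists in mm9, each from the pooled libraries of its group per the labels. The score of a region was deposited by the authors as a p-value scaled by -10 log10, which column names of the 5fC and 5hmC lists of ES cells state. The headerless ones were taken to use this scale. It grows with depth and served only to rank or filter within a list. The submitters' processing notes name Bowtie, MACS 1.4 and, for EB alone, Trimmomatic 0.20 and Picard 1.82. Call thresholds, and whether starts count from 0 or 1, are not given in the sources used here.

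Overlaps (minimum 1 bp), coverage and distances were computed with Python 3.11.15, numpy 2.4.6 and pandas 2.3.3, and tested on simulated data. Intervals are Wilson 95% intervals (scipy 1.17.1). Width matching weighted the second class by 10 width bins of the first. Members, comparisons and rules were chosen with earlier results of these data known. Regions named are the 6 with the highest EB score, the 3 highest with 5fC in EB and Tdg -/- but not fl/fl ES cells, the 3 highest with p300 in both genotypes, and the 3 groups with most members. No sequence was read, and the expression tables were not used here.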

Additional observations from a re-analysis of the deposited data

How the results depend on the processing

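Each list pools its libraries, so leaving out a replicate was not possible, and the unknown depth limits every statement that a region lacks a mark. No paired analysis was possible because the deposited lists carry no replicate numbers. Of 65 values under other settings, 22 stayed within the bounds set for them, 41 moved past these without a change of sign, and 2 changed sign. The bounds were 1.5 times either way for the number of shared regions and the 95% interval for shares, differences, the density ratio and the median width. Both were of the EB 5fC difference between shared regions and those of EB alone, 2.21 points as pooled: it was -1.18 with widths matched and -0.0081 with an overlap of at least 50% asked for, and 3.09 with regions closer than 1 kb merged. In the order Tdg -/- 5fC, EB 5fC, fl/fl 5fC, Tdg -/- p300 and fl/fl p300, the shares of shared regions were 37.7, 7.02, 2.73, 6.42 and 5.52% with the 50% overlap, and 46.2, 13.9, 7.15, 6.02 and 5.56% in the higher-scoring part of each list, which left 8724 shared regions. With no fl/fl 5hmC within 1 kb, Tdg -/- 5fC lay at 42.97%, fl/fl 5fC at 6.29%, Tdg -/- p300 at 9.09% and fl/fl p300 at 8.34%. Without chromosome 11, Tdg -/- 5fC lay at 42.1%, EB 5fC at 11.5%, fl/fl 5fC at 7.39% and fl/fl p300 at 9.11%. Without the first 30 Mb of chromosome 6 too, a setting chosen after seeing the data, these were 41.8, 11.3, 7.51 and 9.05%. With 1 score minimum for all 5fC lists, Tdg -/- 5fC lay at 36.98% and EB 5fC at 8.16%. The Tdg -/- 5fC difference between gained regions with and without EB 5hmC, 26.8 points as pooled, was 23.98 with the 50% overlap, 27.8 merged, 25.82 without chromosome 11, 25.58 without the part of chromosome 6 too, 23.93 with 1 score minimum and 25.84 with widths matched. The density ratio of chromosome 11, 3.98, was 3.74 with the 50% overlap, 4.65 in the higher-scoring part and 4.68 with no fl/fl 5hmC within 1 kb. The cause of these moves was not tested.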
